A study of Mus musculus with 4 samples.

Results

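Trp53, which encodes p53, and 8 genes that p53 switches on in damaged cells were followed in single cells sorted as undifferentiated spermatogonia (Aundiff). These cells came from untreated testes and from testes regenerating after busulfan. The 9 genes were taken by name, namely Trp53, Mdm2, Cdkn1a, Ccng1, Sesn2, Phlda3, Eda2r, Trp53inp1 and Zmat3, and all 9 were among the 27514 genes listed in all 4 libraries. p53 is a transcription factor that is held low by Mdm2, the ubiquitin ligase that marks it for degradation and that is itself a target. DNA damage frees p53, and its targets then hold the cell cycle, assist repair or lead to cell death. Busulfan is an alkylating agent that kills undifferentiated and differentiating spermatogonia, and the spermatogonial stem cells that survive it rebuild the lineage.

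The cells came from adult wild-type C57BL/6J mice of 6 to 8 weeks. The CTRL mice were untreated, and the BU mice had received a single dose of 10 mg/kg busulfan and were sampled on day 10 (D10). Each library pooled 3 mice, and each of the 2 experiments gave 1 CTRL and 1 BU library, so n was 2 per group and differences between mice within a pool were not measured. The sort took c-KIT negative cells positive for E-cadherin and CD49f (alpha6-integrin). Kit+ below refers to mRNA in cells from that sort, and these data hold no measure of surface protein on the sequenced cells. Surviving cells from a treated testis and cells of an untreated one also differ in their makeup, and a change in which cells were present cannot be told apart from a change within cells where all cells are summed.

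Cells with more than 1000 genes and less than 20% mitochondrial UMIs were kept, which left 3101 and 1120 cells in CTRL 1 and CTRL 2 and 2008 and 1264 cells in BU 1 and BU 2. Experiment 2 was deeper, with a median of 30931 and 34176.5 UMIs per cell against 8066 and 9857.5 in experiment 1. Per the labels experiment 1 was made with the 10x kit V2 and experiment 2 with V3.1, whereas the study's methods name V2 throughout, so kit and experiment cannot be told apart in any level or share that differs between experiments. The 8 markers of undifferentiated spermatogonia were detected in all 4 libraries. Spermatid genes summed to 2805 and 17010 CPM (UMIs per 1000000 UMIs) in the CTRL libraries and to 1001 and 8691 CPM in the BU libraries, and somatic genes to between 18.94 and 258.9 CPM, with the Leydig cell genes Insl3 and Cyp17a1 at 0 in experiment 1. CTRL 2 and BU 2 shared 70 cell barcodes, in all of which the smaller barcode held between 1.21% and 1.84% of the UMIs of the larger.

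A cell was counted as Gfra1+, Sox3+ or Kit+ when the natural log of 1 plus the gene's UMIs per 100000 was above 2, the level the study used for Gfra1+ cells. Its use for Sox3 and Kit, and on all cells that passed the filters, was a choice made here, and a single UMI passes it in a shallow cell. The study left out somatic, spermatid and Kit-high clusters, the last as differentiating spermatogonia. Such cells were kept here, so the classes and sums are not limited to Aundiff. Gfra1 encodes a subunit of the GDNF receptor and marks a population enriched in stem cells. Sox3 encodes a transcription factor of progenitors, and Kit the receptor of cells entering differentiation. Gfra1+ cells made up 18.9% and 19.1% of the CTRL libraries and 43.1% and 41.8% of the BU libraries. Sox3+ cells made up 47.4% and 57.7% of CTRL and 23.6% and 20.9% of BU, and Kit+ cells 1.16% and 3.3% of CTRL and 16% and 12.3% of BU. The CTRL Kit+ sums therefore rest on 36 and 37 cells, and 96 to 264 cells per library belonged to more than 1 class. In CTRL 2 the Kit+ cells also carried 5380 CPM of somatic and 7653 CPM of spermatid genes, against at most 20.95 and 774.5 CPM in the Kit+ cells of the other 3 libraries.

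The promoters of Cdkn1a, Ccng1 and Mdm2 are shown because the first pair rose in BU in the results that follow and the third, the negative regulator, was not called. Each run is the RefSeq sequence on GRCm38.p6 from 250 bases before to 50 bases after the annotated start, 5′ to 3′ on the gene's strand. Capitals mark matches to the p53 response element, a pair of adjoining decamers, which was searched with no gap and at most 2 mismatches, or to a single exact decamer. The motif equals its own reverse complement, so a single search covers both strands.
Cdkn1a: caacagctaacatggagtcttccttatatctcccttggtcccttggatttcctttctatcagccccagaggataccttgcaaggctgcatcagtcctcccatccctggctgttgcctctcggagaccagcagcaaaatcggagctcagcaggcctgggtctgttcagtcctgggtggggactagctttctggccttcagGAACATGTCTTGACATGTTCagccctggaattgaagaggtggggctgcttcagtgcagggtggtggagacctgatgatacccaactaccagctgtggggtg
Ccng1: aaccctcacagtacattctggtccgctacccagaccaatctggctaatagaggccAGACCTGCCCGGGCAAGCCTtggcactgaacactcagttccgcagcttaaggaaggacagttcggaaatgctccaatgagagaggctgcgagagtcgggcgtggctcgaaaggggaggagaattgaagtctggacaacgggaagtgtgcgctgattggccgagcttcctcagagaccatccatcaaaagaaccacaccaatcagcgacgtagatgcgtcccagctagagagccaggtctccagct
Mdm2: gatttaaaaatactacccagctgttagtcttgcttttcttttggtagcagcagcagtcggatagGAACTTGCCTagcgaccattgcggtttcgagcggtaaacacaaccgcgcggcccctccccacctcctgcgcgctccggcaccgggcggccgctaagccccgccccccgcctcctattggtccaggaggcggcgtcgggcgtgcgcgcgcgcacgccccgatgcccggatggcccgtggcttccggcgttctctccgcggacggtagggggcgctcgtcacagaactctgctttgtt

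The Cdkn1a window lies at chr17:29090729-29091028 on the plus strand, at the upstream start of the gene. Its capitals are an adjoining pair with 1 mismatch that ends 32 bases before that start. The window of the second Cdkn1a start lies downstream, at chr17:29093519-29093818, and is not printed. The Ccng1 window lies at chr11:40755237-40755536 on the minus strand, and its pair, also with 1 mismatch, ends 176 bases before the start. The Mdm2 window, at chr10:117710709-117711008 on the minus strand, held a single exact decamer 186 to 177 bases before its start. A pair of this kind occurred in 107 of the 32851 promoter windows in the table (0.326%) and an exact decamer in 2745 (8.36%). The table held 8 windows for 7 of the 9 genes, without Trp53inp1 and Zmat3. The Trp53 window (chr11:69580109-69580408) held 1 exact decamer, and the windows of the second Cdkn1a start, Sesn2, Phlda3 and Eda2r held no match. Phlda3 and Eda2r also rose in BU in the results that follow, and their promoters are not printed. Sites outside these windows were not searched, and a link of matches to the rise was not tested. A match is a run of letters and not evidence of binding.

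The first comparison asked whether p53 and its targets differed between sorted BU and CTRL cells. Summed over all cells that passed, Cdkn1a, Ccng1, Phlda3 and Eda2r were several-fold higher in both BU libraries, whereas Trp53 and Mdm2 were not called. Values are CPM over the UMIs of the 27514 shared genes, and fold changes are from edgeR's quasi-likelihood test on UMI sums per library with TMM normalization. With condition as the only term the test called 0 of 17354 genes at an adjusted p of 0.05 (0% in either direction), although 926 genes had an unadjusted p under 0.05 and DESeq2 called 113. The replicate numbers mark shared experiments, and with the replicate number as a block 258 genes were called (1.49%), of which 111 were higher and 147 lower in BU. The 4 genes named above were among them, 4 of 9 members, and none of the other 5 was called. Since the 9 genes were chosen with earlier results of these data known, this count is a description.

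Trp53 itself (chr11:69580359-69591873, plus strand) was measured at 82.5 and 52.1 CPM in CTRL and 110 and 71.3 CPM in BU. The groups overlapped, since BU 2 lay below CTRL 1, with means of 67.3 ± 21.5 and 90.7 ± 27.5 CPM (SD, n = 2). Within each experiment BU was the higher, by 1.34-fold and 1.37-fold. The blocked log2 fold change was 0.46 ± 0.21 (SE, edgeR adjusted p = 0.279), and without the block it was 0.45 ± 0.42 with an adjusted p of about 1.

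Mdm2 (chr10:117688875-117710758, minus strand), the ubiquitin ligase that restrains p53, stood at 111 and 90.8 CPM in CTRL and 124 and 101 CPM in BU. Its levels overlapped between the groups, and the ratios within experiments were 1.11 and 1.12. The blocked log2 fold change was 0.18 ± 0.19 (edgeR adjusted p = 0.65).

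Cdkn1a (chr17:29090976-29100727, plus strand) encodes p21, the inhibitor of cyclin-dependent kinases that holds cells before S phase. It was at 18.9 and 14.5 CPM in the CTRL libraries (500 and 555 UMIs) and at 86.1 and 84.9 CPM in the BU libraries (1807 and 4446 UMIs). Both BU libraries were far above both CTRL libraries, 4.56-fold in experiment 1 and 5.87-fold in experiment 2, and group means were 16.7 ± 3.11 and 85.5 ± 0.863 CPM. The blocked log2 fold change was 2.40 ± 0.24 (edgeR adjusted p = 0.02), and the value without the block was nearly the same with a wider error, 2.38 ± 0.32 (adjusted p = 0.869). DESeq2 called the gene without a block (adjusted p = 0.000598), and it called no other member over all cells (0.152 for Ccng1, 0.461 for Phlda3 and 0.125 for Eda2r). An exact permutation test of 2 against 2 libraries cannot give a two-sided p below 0.33, which every gene with non-overlapping groups reached.

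Cells with at least 1 Cdkn1a UMI were also more frequent in BU. After each cell was thinned to 5000 UMIs, which left out 276, 114, 80 and 95 shallower cells of CTRL 1, CTRL 2, BU 1 and BU 2, the share was 6.34% (exact 95% interval 5.47 to 7.30%) in CTRL 1 and 5.57% (4.23 to 7.17%) in CTRL 2. In BU 1 it was 22.7% (20.9 to 24.7%) and in BU 2 21.2% (18.9 to 23.7%). Unthinned, the shares were 10.1%, 21.2%, 34.6% and 50.5%, with the deeper library of each group the higher. The intervals cover counting error only. Cells with over 5% of their UMIs in spermatid genes, which lie outside the sort's target, gave a thinned share of 3.23% (1 of 31), 2.5% (2 of 80), 14.3% (1 of 7) and 1.89% (1 of 53), at median depths of 11470, 23957, 14747 and 31857 UMIs. The thinned BU 2 share over all passing cells was far above that of its spermatid cells, and the spermatid share of BU 1 rests on 7 cells. Unthinned, the spermatid cells gave 20.6%, 17.9%, 28.6% and 23.7% in CTRL 1, CTRL 2, BU 1 and BU 2. In CTRL 1 that exceeded the 10.1% of all passing cells. Mdm2, at a higher CPM than Cdkn1a over all passing cells of each library, gave 0%, 8.42%, 28.6% and 18.6% of spermatid cells in the same order. Whether the Cdkn1a UMIs were the spermatid cells' own was not tested, so their shares are no background level.

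Ccng1 (chr11:40748552-40755311, minus strand) encodes cyclin G1, an early p53 target that acts on Mdm2. Its levels were 42.6 and 31.1 CPM in CTRL and 128 and 100.4 CPM in BU, without overlap. The rise was 2.99-fold and 3.23-fold within experiments, and the blocked log2 fold change was 1.66 ± 0.21 (edgeR adjusted p = 0.0289). Without the block it was 1.65 ± 0.34 (adjusted p = 0.869).

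Phlda3 (chr1:135766119-135769136, plus strand) encodes a protein that competes with Akt for membrane lipids and so restrains it. It was at 16.1 and 9.75 CPM in CTRL and 43.2 and 32.0 CPM in BU, again without overlap. The ratios were 2.68 and 3.28, with a blocked log2 fold change of 1.60 ± 0.26 (edgeR adjusted p = 0.0402) and 1.56 ± 0.43 without the block (adjusted p = 0.872).

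Eda2r (chrX:97333840-97377216, minus strand) encodes a receptor of the TNF receptor family and was the rarest of the 9 transcripts. It gave 11 and 17 UMIs in the CTRL libraries (0.415 and 0.443 CPM) and 51 and 155 UMIs in the BU libraries (2.43 and 2.96 CPM). The blocked log2 fold change was 2.67 ± 0.42 (edgeR adjusted p = 0.0377), and 2.67 ± 0.52 without the block (adjusted p = 0.869). The call rests on few counts.

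Sesn2 (chr4:132492032-132510501, minus strand), a stress-induced inhibitor of mTORC1 signalling, was at 24.7 and 11.0 CPM in CTRL and 35.9 and 16.7 CPM in BU. The groups overlapped because experiment 2 was lower throughout, although BU exceeded CTRL in each experiment (1.45-fold and 1.53-fold). The blocked log2 fold change was 0.60 ± 0.25 (edgeR adjusted p = 0.253). Trp53inp1 (chr4:11156431-11174379, plus strand), which promotes p53 phosphorylation and autophagy, went the other way, with 54.2 and 56.5 CPM in CTRL and 52.0 and 42.2 CPM in BU. Its levels did not overlap, but the difference was small and its blocked adjusted p was 0.648. Zmat3 (chr3:32334792-32366014, minus strand), an RNA-binding regulator of splicing, was low throughout, at 5.96, 7.12, 4.77 and 7.16 CPM in CTRL 1, CTRL 2, BU 1 and BU 2, with a blocked adjusted p of 0.859.

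Other measurements bear on the 4 calls over all cells, which edgeR made only with the block. Without the block it also called 0 genes with no filter on low counts and under 10% mitochondrial UMIs. The same held with cells of high UMI count left out and with shared barcodes left out. Fits without 1 library leave a lone library in a group and cannot decide these calls. With cells marked as spermatid or somatic left out, Cdkn1a (log2 fold change 2.35, adjusted p = 0.0422) and Ccng1 (1.53, 0.0466) stayed called in the blocked edgeR fit, while Phlda3 (1.46, 0.0667) and Eda2r (2.60, 0.0627) did not. In the blocked edgeR fit the 4 adjusted p-values were between 3.68e-08 and 0.00284 with every cell thinned to one depth. They were between 7.57e-07 and 0.00152 with shared barcodes left out. That setting dropped both copies of a shared barcode. In the pairs of CTRL 2 and BU 2 the larger copies held a median of 145614.5 UMIs. S phase genes summed to 3688 and 3563 CPM in CTRL and 6226 and 5182 CPM in BU, and G2/M genes to 5153 and 5873 against 8696 and 9343 CPM. Genes induced by tissue dissociation summed to 3838 and 3466 CPM in CTRL and 4544 and 4111 CPM in BU. The part of these differences in the result was not tested beyond the fits given.

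**Figure D1:**
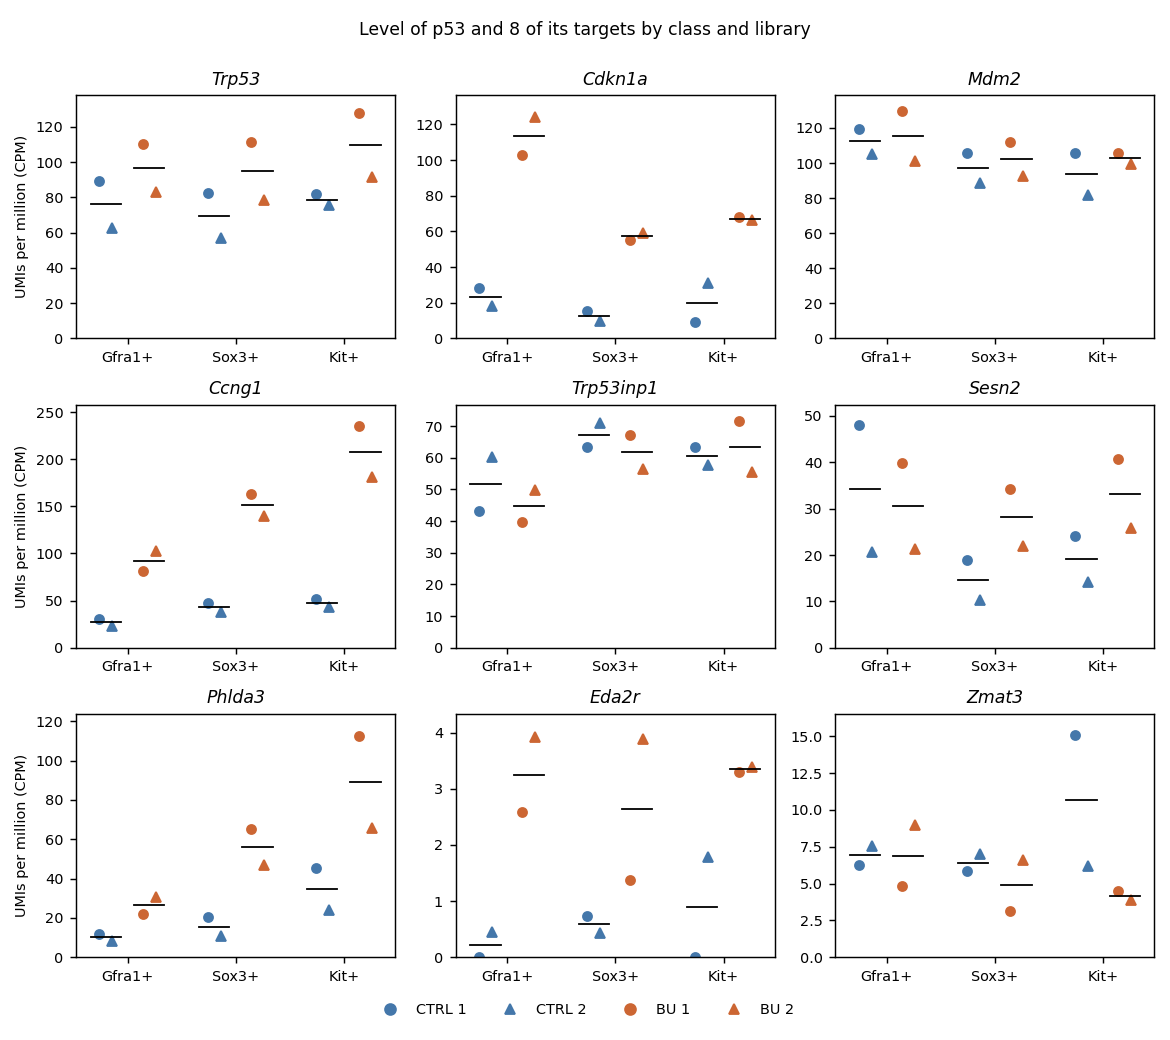
Levels of the 9 genes in CPM (y axes, from 0) in Gfra1+, Sox3+ and Kit+ cells of each library, with CTRL in blue, BU in orange, circles for experiment 1, triangles for experiment 2 and black bars at the group mean of 2 libraries. Cdkn1a, Ccng1 and Phlda3 sit higher in both BU libraries than in both CTRL libraries in all 3 classes, and Cdkn1a in Gfra1+ cells runs from 18.3 CPM in CTRL 2 to 124.1 CPM in BU 2.

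The class shares differed so much between CTRL and BU that the same comparison was made within each class. In Gfra1+ cells Cdkn1a was at 28.5 and 18.3 CPM in CTRL and at 102.6 and 124.1 CPM in BU. BU was 3.60-fold and 6.79-fold higher within experiments, and the blocked log2 fold change was 2.40 ± 0.29 (edgeR adjusted p = 0.0299). Ccng1 was at 30.4 and 23.3 CPM in CTRL and 81.8 and 102 CPM in BU, but its blocked log2 fold change of 1.88 ± 0.26 fell short of the threshold (edgeR adjusted p = 0.0537). With spermatid and somatic cells left out it was 1.86 (adjusted p = 0.037). Phlda3 stood at 11.7 and 8.32 CPM in CTRL and 21.8 and 30.8 CPM in BU (1.497 ± 0.32, edgeR adjusted p = 0.117). Eda2r had 0 and 3 UMIs in the CTRL Gfra1+ cells and 24 and 95 in the BU cells (edgeR adjusted p = 0.0828). It passed the filter on low counts through its BU counts, so that p-value is a description.

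Cdkn1a was thus the only one of 9 members called in Gfra1+ cells with the block, where 9 of 13632 genes (0.066%) were called. Without the block edgeR called 0 genes (583 at an unadjusted p under 0.05, 15 by DESeq2). DESeq2 called Cdkn1a (2.36, adjusted p = 3.07e-05) and Ccng1 (1.86, 0.0018). In cells above the threshold for Gfra1 alone, the blocked edgeR fit called Cdkn1a (2.23, adjusted p = 0.00114), Ccng1 (1.98, 0.00127) and Phlda3 (1.58, 0.0269). The Gfra1+ class itself also differed between the groups. Its progenitor genes summed to 214.8 and 195.4 CPM in CTRL and 59.91 and 67.52 CPM in BU, with 1 of 6 called lower. S phase genes summed to 4568 and 4952 CPM in CTRL and 6620 and 5459 CPM in BU, and G2/M genes to 6014 and 7303 against 8451 and 10030 CPM, with no gene of either list called. The part of these shifts in the result was not tested. The thinned share of Gfra1+ cells with a Cdkn1a UMI was 9.42% and 7.18% in CTRL and 26.4% and 27.3% in BU. Trp53 was at 89.4 and 62.8 CPM in CTRL and 110.5 and 83.0 CPM in BU, with overlapping groups (0.45 ± 0.21, edgeR adjusted p = 0.445). Sesn2 was at 48.0 and 20.7 CPM in CTRL and 39.8 and 21.3 CPM in BU.

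In Sox3+ cells 3 of 9 members were called with the block, against 814 of 14445 genes (5.64%). Cdkn1a was at 15.6 and 9.85 CPM in CTRL and 55.4 and 59.3 CPM in BU, with a log2 fold change of 2.17 ± 0.25 (edgeR adjusted p = 0.0235). Ccng1 went from 48.0 and 38.1 CPM to 163 and 140 CPM (1.77 ± 0.17, edgeR adjusted p = 0.0198). Phlda3 went from 20.4 and 10.6 CPM to 65.2 and 46.7 CPM (1.86 ± 0.21, edgeR adjusted p = 0.0235). In none of these did a BU library come near a CTRL library. Sesn2 was also higher without overlap, at 34.3 and 22.0 CPM against 19.0 and 10.3 CPM, but missed the threshold (0.93 ± 0.21, edgeR adjusted p = 0.0567). With shared barcodes left out it passed (0.95, adjusted p = 0.0426). The makeup of the Sox3+ class moved with these values. Cells that were also Kit+ numbered 24 of 1470 and 20 of 646 in CTRL and 134 of 473 and 86 of 264 in BU. In the blocked fit 4 of 5 differentiating genes were higher in BU (summed level 129.9 and 95.38 CPM in CTRL, 470.7 and 359.4 CPM in BU), as were 4 of 8 stem-like genes, and all 5 progenitor genes tested were lower. S phase genes summed to 3378 and 3630 CPM in CTRL and 5755 and 5783 CPM in BU, and G2/M genes to 4993 and 5898 against 8607 and 10370 CPM. In cells above the threshold for Sox3 alone, Cdkn1a (2.39, edgeR adjusted p = 0.00138), Ccng1 (1.66, 0.0046) and Phlda3 (1.51, 0.0205) were called with the block, and the part of the other shifts was not tested. Without the block edgeR called 0 genes in Sox3+ cells (2029 at an unadjusted p under 0.05, 323 by DESeq2), and DESeq2 called Cdkn1a, Ccng1 and Phlda3 (adjusted p 2.94e-05, 4.77e-05 and 0.00763). Trp53 was at 82.3 and 56.8 CPM in CTRL and 111 and 78.5 CPM in BU (0.41 ± 0.17, edgeR adjusted p = 0.177).

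In Kit+ cells Ccng1 was the only member called of 8 tested, since Eda2r did not pass the filter on low counts. With the block 115 of 11030 genes (1.04%) were called, 12 higher and 103 lower in BU. Ccng1 was at 51.4 and 43.5 CPM in CTRL (17 and 49 UMIs) and 235 and 181 CPM in BU (785 and 1549 UMIs), the highest level of the gene in any class. The log2 fold change was 2.07 ± 0.31 (edgeR adjusted p = 0.0115), and 2.10 ± 0.35 without the block (adjusted p = 0.46). Phlda3 was at 45.4 and 24.0 CPM in CTRL and 112.5 and 65.5 CPM in BU (1.34 ± 0.34, edgeR adjusted p = 0.0871). Trp53 was at 81.7 and 75.5 CPM in CTRL and 128 and 91.8 CPM in BU, without overlap (0.40 ± 0.30, edgeR adjusted p = 0.67). Without the block edgeR called 0 genes in Kit+ cells (910 at an unadjusted p under 0.05, 41 by DESeq2), and DESeq2 called Ccng1 (adjusted p = 0.005).

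Cdkn1a in Kit+ cells depended on a handful of cells in CTRL 2. It was at 9.07 CPM in CTRL 1 (3 UMIs), 31.1 CPM in CTRL 2 (35 UMIs), 67.9 CPM in BU 1 (227 UMIs) and 66.5 CPM in BU 2 (568 UMIs), with a log2 fold change of 1.58 ± 0.43 (edgeR adjusted p = 0.116). Of the 35 UMIs in CTRL 2, 31 lay in 8 cells that carried spermatid (6 cells) or somatic (2 cells) RNA, in which Cdkn1a was at 117 CPM. The other 29 cells held 4 UMIs, or 4.65 CPM. With such cells left out of all libraries the log2 fold change was 3.50 ± 0.50 (edgeR adjusted p = 3.70e-09), from 3 and 4 UMIs in CTRL, and Phlda3 was also called (1.24, adjusted p = 0.0136).

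**Figure D2:**
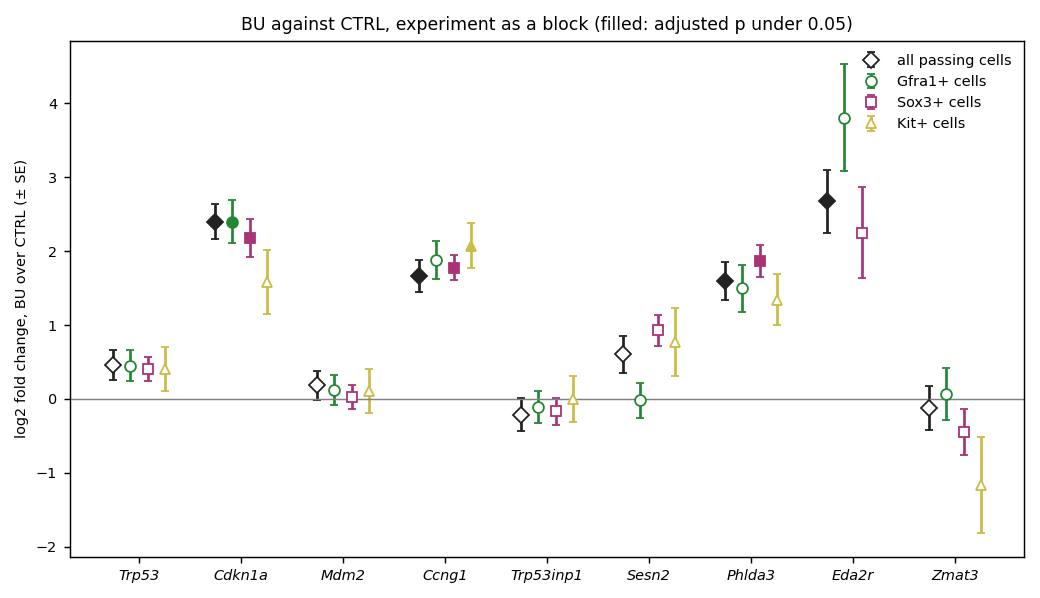
Log2 fold change of BU over CTRL for each gene (x axis, with the replicate number as a block) in all passing cells (diamonds), Gfra1+ (circles), Sox3+ (squares) and Kit+ cells (triangles), with bars of 1 SE and filled symbols for an adjusted p under 0.05. Cdkn1a, Ccng1 and Phlda3 lie between 1.34 and 2.40 in every class, and Trp53 between 0.40 and 0.46. Eda2r was not tested in Kit+ cells, and its fitted value in Gfra1+ cells, where CTRL 1 had 0 UMIs, is no measure of size.

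The second comparison asked how the genes differed between the classes of sorted cells. Only cells above the threshold for a single gene were used, summed per library into 12 sums and fitted with library as a block, so that each class was compared within its own library. From Gfra1+ to Sox3+ cells, 1793 of 13273 genes were called (13.5%), among them 3 of 9 members. Ccng1 was higher in Sox3+ cells, with 48.6, 39.5, 161 and 121 CPM in CTRL 1, CTRL 2, BU 1 and BU 2 against 25.3, 23.9, 83.8 and 98.5 CPM in Gfra1+ cells. It was the higher in all 4 libraries, with a log2 difference of 0.78 ± 0.20 (edgeR adjusted p = 0.0243). Trp53inp1 was also higher in Sox3+ cells (0.67 ± 0.17, edgeR adjusted p = 0.0219), at 64.2, 70.5, 77.0 and 55.5 CPM against 37.4, 48.8, 39.3 and 47.5 CPM. Sesn2 was lower in Sox3+ cells (-0.88 ± 0.20, edgeR adjusted p = 0.0128), at 17.1, 8.89, 31.4 and 14.6 CPM against 55.6, 20.5, 39.6 and 20.4 CPM.

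Each of these calls was lost without at least 1 library. The Ccng1 call was lost without CTRL 1 (0.70, adjusted p = 0.0862), without BU 1 (0.71, 0.166) and without BU 2 (0.96, 0.0537). The Trp53inp1 call was lost without CTRL 1 (0.61, 0.148) and without BU 1 (0.55, 0.152), and the Sesn2 call without CTRL 1 (-0.62, 0.0978), after thinning (-0.76, 0.0945) and in the BU libraries alone (-0.42, 0.0579). Without the library as a block none of the 3 was called (adjusted p = 0.822, 0.104 and 0.383 for Ccng1, Trp53inp1 and Sesn2). Cdkn1a was lower in Sox3+ cells of all 4 libraries, with 14.5, 9.90, 60.9 and 65.6 CPM against 30.6, 24.4, 109 and 131.5 CPM in Gfra1+ cells. The main value still missed the threshold (-1.004 ± 0.36, edgeR adjusted p = 0.0922). All classes were fitted together, so the error of that value also holds the spread of the Kit+ sums. Those held Cdkn1a at 0 and 76.5 CPM in CTRL 1 and CTRL 2. With spermatid and somatic cells left out the difference was nearly the same and passed (-0.997, adjusted p = 5.48e-06), as it did in the BU libraries alone (-0.94, 9.11e-08) and without CTRL 2 (-0.95, 5.36e-08). After thinning it was -0.60 (adjusted p = 0.0591). Phlda3 went the other way (0.76 ± 0.27, edgeR adjusted p = 0.0948).

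From Gfra1+ to Kit+ cells 3061 genes were called (23.1%), and again 3 of 9 members. Phlda3 rose by a log2 difference of 1.60 ± 0.32 (edgeR adjusted p = 0.00553), with 33.4, 12.3, 122 and 64.2 CPM in Kit+ cells against 7.41, 10.2, 19.4 and 30.0 CPM in Gfra1+ cells. Ccng1 rose by 1.02 ± 0.23 (edgeR adjusted p = 0.0102), to 265 and 177 CPM in the BU libraries. In the CTRL libraries, with 10 and 15 Kit+ cells, Ccng1 was at 11.1 and 37.0 CPM, so the rise was not seen in CTRL 1. Mdm2 was lower in Kit+ cells (-0.60 ± 0.18, edgeR adjusted p = 0.0375), at 89.1, 34.5, 96.0 and 89.0 CPM against 127, 104, 127 and 101 CPM. Phlda3 lost its call without BU 1 (1.13, adjusted p = 0.0938), Ccng1 without BU 1 (0.73, 0.17) or BU 2 (1.14, 0.0601), and Mdm2 without CTRL 1 (-0.61, 0.0992), BU 1 (-0.62, 0.154) or BU 2 (-0.79, 0.0737). Without the library block Phlda3, Ccng1 and Mdm2 were not called (adjusted p = 0.0915, 0.328 and 0.142). Mdm2 also lost its call after thinning and kept it with spermatid and somatic cells left out. Its CTRL Kit+ values rest on 8 UMIs in CTRL 1 and 14 in CTRL 2, of which 11 lay in 8 cells with spermatid or somatic RNA.

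Cdkn1a in Kit+ cells was at 0, 76.5, 69.0 and 69.3 CPM, below the Gfra1+ level in every library but CTRL 2, and the log2 difference was -0.36 ± 0.45 (edgeR adjusted p = 0.595). It was -0.996 (adjusted p = 0.000128) with spermatid and somatic cells left out and -0.93 (3.01e-07) in the BU libraries alone. Between Sox3+ and Kit+ cells, where 1898 genes were called (14.3%, 766 higher and 1132 lower in Kit+ cells, against 1537 and 1202 by DESeq2), no member passed in edgeR. The nearest in edgeR was Phlda3 (0.83 ± 0.31, adjusted p = 0.0903), which passed with spermatid and somatic cells left out (0.96, 0.0117). In the BU libraries alone, Ccng1 (0.53, adjusted p = 0.00377) and Phlda3 (1.01, 0.000698) were higher in Kit+ than in Sox3+ cells. Trp53 ran in the same order in all 4 libraries, highest in Kit+ and lowest in Sox3+ cells. It was at 93.2, 66.4, 110 and 84.8 CPM in Gfra1+, 82.8, 56.1, 94.3 and 69.3 CPM in Sox3+ and 111, 74.0, 126 and 92.8 CPM in Kit+ cells. The CTRL Kit+ values rest on 10 UMIs in 10 cells of CTRL 1 and 30 UMIs in 15 cells of CTRL 2. Of those 30 UMIs, 14 lay in 8 cells with spermatid or somatic RNA. The steps were small, and none of the 3 passed in edgeR (adjusted p = 0.309, 0.508 and 0.116 for Sox3+ against Gfra1+, Kit+ against Gfra1+ and Kit+ against Sox3+ cells), while DESeq2 called the last. Eda2r, with 0 to 77 UMIs in these sums, and Zmat3, at 9.87 CPM or less, passed in none of the 3 class comparisons (edgeR adjusted p of 0.765 or more and 0.391 or more).

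Whether the BU effect itself differed between classes was tested as an interaction in the same 12 sums. Between Sox3+ and Gfra1+ cells 5 genes differed (0.0377%) and no member did. Cdkn1a differed by 0.12 ± 0.32 on the log2 scale (edgeR adjusted p = 0.981) and Sesn2 by 0.92 ± 0.26 (edgeR adjusted p = 0.388). In these sums Sesn2 was at 55.6 and 20.5 CPM in CTRL and 39.6 and 20.4 CPM in BU Gfra1+ cells, and at 17.1 and 8.89 CPM in CTRL and 31.4 and 14.6 CPM in BU Sox3+ cells. Between Kit+ and Gfra1+ cells 548 genes differed (4.13%), including Cdkn1a alone of the members (-2.21 ± 0.54, edgeR adjusted p = 0.0421). That value compares a CTRL Kit+ sum of 0 UMIs in 10 cells of CTRL 1 and a sum of 15 cells in CTRL 2 that includes the cells with spermatid and somatic RNA, and its size has no meaning beyond that. With those cells left out no CTRL cell of these sums held a Cdkn1a UMI, so that no size could be estimated (adjusted p = 0.301), and DESeq2 did not call the difference (-1.88, 0.277).

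The third comparison asked how the genes varied with the cell cycle. Cells of each class and library were ranked by the share of their UMIs in 91 S phase and G2/M genes and cut into tertiles, and the highest tertile was compared with the lowest within libraries. In Gfra1+ cells 4404 of 12093 genes were called (36.4%) and 2 of 8 members tested, Cdkn1a and Trp53, both higher in the cells richer in cycle RNA. Cdkn1a, the cycle inhibitor, was at 14.4, 12.5 and 52.4 CPM from the lowest to the highest tertile of CTRL 1, and at 7.20, 9.31 and 34.1 CPM in CTRL 2. In BU 1 it was at 72.2, 106 and 124 CPM, and in BU 2 at 60.2, 143 and 141 CPM. The highest tertile exceeded the lowest in all 4 libraries, by 3.65-fold and 4.74-fold in CTRL and by 1.71-fold and 2.34-fold in BU. The log2 difference was 1.32 ± 0.16 (edgeR adjusted p = 6.50e-05). In the lowest tertile of BU it was still above the highest tertile of CTRL.

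Trp53 in Gfra1+ cells went from 73.2 to 111 CPM between the lowest and highest tertile of CTRL 1, from 55.2 to 69.4 CPM in CTRL 2, from 97.7 to 117 CPM in BU 1 and from 75.5 to 83.7 CPM in BU 2. The difference was small and had the same sign in every library (0.36 ± 0.10, edgeR adjusted p = 0.0115). Mdm2 did not pass (0.24 ± 0.10, edgeR adjusted p = 0.0712). Ccng1 had no common direction, with 104, 86.3 and 60.3 CPM from lowest to highest in BU 1 and 66.7, 121 and 104 CPM in BU 2. Phlda3 had none either. Sesn2, Trp53inp1 and Zmat3 did not pass in Gfra1+ cells (edgeR adjusted p = 0.59, 0.906 and 0.491), and Eda2r was too low to be tested.

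Depth and other cell types moved with the tertiles. Median UMIs per Gfra1+ cell rose from 6453 to 9376 in CTRL 1, 24536 to 32546 in CTRL 2, 8690 to 11555.5 in BU 1 and 27970.5 to 50806.5 in BU 2, and after thinning the Cdkn1a difference was 1.21 (adjusted p = 0.000279). All 6 spermatid and all 5 somatic genes tested were lower in the highest tertile, and with such cells left out the Cdkn1a difference was 1.29 (adjusted p = 4.48e-05). Ranked by S phase genes alone it was 0.78 (adjusted p = 0.0346), and by G2/M genes alone 1.38 (4.57e-05). Over single thinned Gfra1+ cells the Spearman correlation of Cdkn1a UMIs with cycle UMIs was 0.168 in CTRL 1 (n = 520 cells), 0.275 in CTRL 2 (n = 209), 0.143 in BU 1 (n = 847) and 0.157 in BU 2 (n = 524), weak values in sparse counts given as a description.

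**Figure D3:**
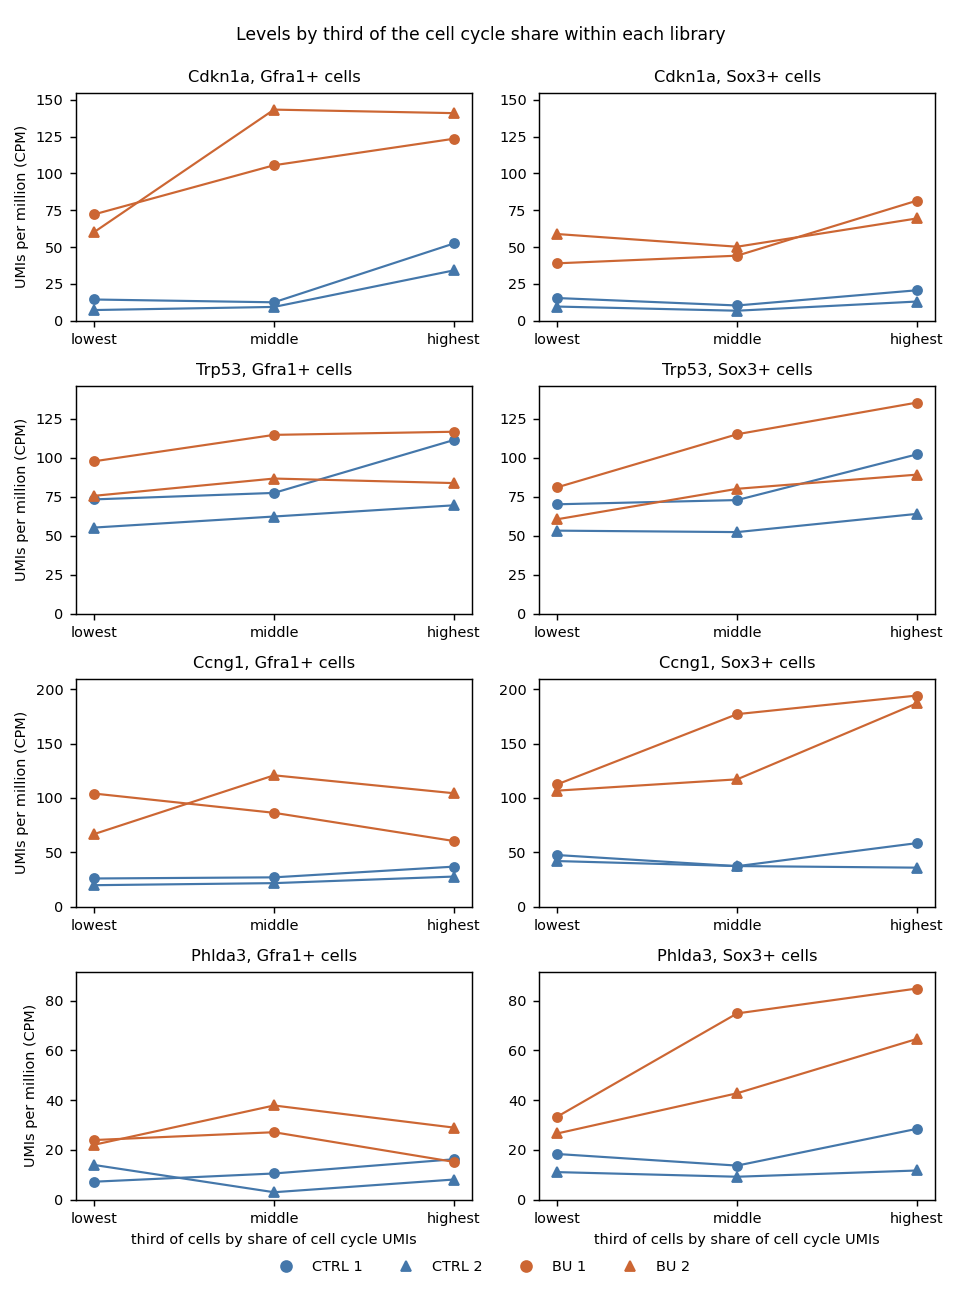
CPM of Cdkn1a, Trp53, Ccng1 and Phlda3 (y axes) in the lowest, middle and highest tertile of cell cycle RNA share (x axis) in Gfra1+ and Sox3+ cells, with a line for each of the 4 libraries, CTRL in blue and BU in orange. Cdkn1a in Gfra1+ cells is higher in the highest than in the lowest tertile in all 4 libraries, and both BU lines (60.2 CPM or more) lie above both CTRL lines (52.4 CPM or less).

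In Sox3+ cells 2504 of 12785 genes were called (19.6%), with 2 of 9 members, Trp53 and Phlda3, both higher in the highest tertile. Trp53 went from 70.1 to 102 CPM in CTRL 1, 53.2 to 63.9 CPM in CTRL 2, 81.0 to 135 CPM in BU 1 and 60.5 to 89.1 CPM in BU 2 (0.46 ± 0.11, edgeR adjusted p = 0.0152). The Trp53 call was lost without CTRL 1 (0.43, adjusted p = 0.0546) and without BU 1 (0.43, 0.055). Phlda3 went from 33.4 to 84.9 CPM in BU 1 and from 26.6 to 64.7 CPM in BU 2, but only from 18.3 to 28.5 CPM in CTRL 1 and 11.0 to 11.7 CPM in CTRL 2 (0.79 ± 0.20, edgeR adjusted p = 0.0159). The Phlda3 call was lost without BU 1 (0.66, adjusted p = 0.0813), without BU 2 (0.64, 0.0582), with S phase genes only (0.48, 0.111) and after thinning (0.67, 0.135).

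In the same fit all 5 progenitor genes tested were lower in the highest tertile, 3 of 5 differentiating genes were higher and 5 of 6 spermatid genes were lower, and their part in the 2 calls was not tested. With spermatid and somatic cells left out, Trp53 (0.44, adjusted p = 0.017) and Phlda3 (0.76, 0.0168) stayed called.

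Cdkn1a in Sox3+ cells was at 15.4, 10.3 and 20.6 CPM from lowest to highest in CTRL 1, 9.56, 6.74 and 13.0 CPM in CTRL 2, 39.0, 44.1 and 81.5 CPM in BU 1 and 58.8, 50.2 and 69.5 CPM in BU 2. The highest tertile was the highest in each library, but the difference missed the threshold (0.47 ± 0.16, edgeR adjusted p = 0.0561). It was 0.74 (adjusted p = 0.00697) by G2/M genes alone and -0.36 (0.315) by S phase genes alone. Ccng1 went from 113 to 194 CPM in BU 1 and from 107 to 187 CPM in BU 2, with 47.4 to 58.4 CPM in CTRL 1 and 41.9 to 35.8 CPM in CTRL 2 (0.37 ± 0.16, edgeR adjusted p = 0.116). The other 4 members did not pass in Sox3+ cells, with edgeR adjusted p = 0.0804 for Sesn2, 0.212 for Zmat3, 0.525 for Trp53inp1 and 0.851 for Eda2r, and neither did Mdm2. Whether the cycle differences themselves differed between Gfra1+ and Sox3+ cells, or between BU and CTRL, was not tested. In Kit+ cells edgeR called 0 of 9139 genes (0%, 1250 at an unadjusted p under 0.05, 112 by DESeq2). With spermatid and somatic cells left out 949 genes were called, Ccng1 (0.67, adjusted p = 0.0136) and Phlda3 (0.86, 0.00472) among them.

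Cells with and without a Cdkn1a UMI, after thinning to 5000 UMIs, were then set side by side within libraries as a description. In Gfra1+ cells Ccng1 was at 57.1 CPM in the 49 cells with a Cdkn1a UMI of CTRL 1 and 27.6 CPM in the 471 without, and at 53.3 against 15.5 CPM in CTRL 2. In BU 1 it was at 149 against 51.4 CPM (224 and 623 cells) and in BU 2 at 172 against 57.7 CPM (143 and 381 cells). Ccng1 was thus higher in the Cdkn1a-positive cells of every library. Phlda3 was higher in 3 libraries (32.7 against 7.64, 39.3 against 15.1 and 49.0 against 17.3 CPM in CTRL 1, BU 1 and BU 2) and at 0 in the 15 positive cells of CTRL 2. Mdm2 was at 188 against 117, 160 against 100, 146 against 132 and 125 against 87.7 CPM in CTRL 1, CTRL 2, BU 1 and BU 2. Trp53 differed most in CTRL 2 (107 against 54.6 CPM) and little in CTRL 1 (93.9 against 88.8 CPM) and BU 1 (113 against 107 CPM).

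Sox3+ cells gave a like picture for Ccng1 and Phlda3. The cells with a Cdkn1a UMI numbered 86, 32, 80 and 47 in CTRL 1, CTRL 2, BU 1 and BU 2, so the CTRL 2 values rest on few UMIs. Ccng1 was at 109 against 42 CPM in CTRL 1, 50 against 39.6 CPM in CTRL 2, 305 against 130 CPM in BU 1 and 213 against 109 CPM in BU 2. Phlda3 was at 72.1 against 15.9, 12.5 against 8.58, 132.5 against 55.3 and 76.6 against 32.1 CPM in the same order. Mdm2 was at 112 against 103, 87.5 against 85.8, 130 against 101 and 106 against 75.5 CPM. Trp53 was at 88.4 against 81.8, 125 against 47.5, 122.5 against 110 and 149 against 70.8 CPM. Trp53inp1 was lower in the Cdkn1a-positive cells of CTRL 2, at 13.3 against 70.1 CPM in Gfra1+ and 50 against 71.3 CPM in Sox3+ cells. It was higher in both classes of every other library. Sesn2 was higher in all pairs but Sox3+ cells of BU 2 (21.3 against 22.6 CPM). Eda2r and Zmat3 were at most at 17.02 CPM in either class. The part of Kit+ cells in these differences was not tested. Cycle RNA was higher in Cdkn1a-positive Gfra1+ cells, with medians of 65 against 42, 90 against 44, 83 against 73 and 82 against 68 cycle UMIs per 5000, and nearly level in Sox3+ cells (36 against 34, 41 against 39, 79 against 74 and 82 against 80).

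**Figure D4:**
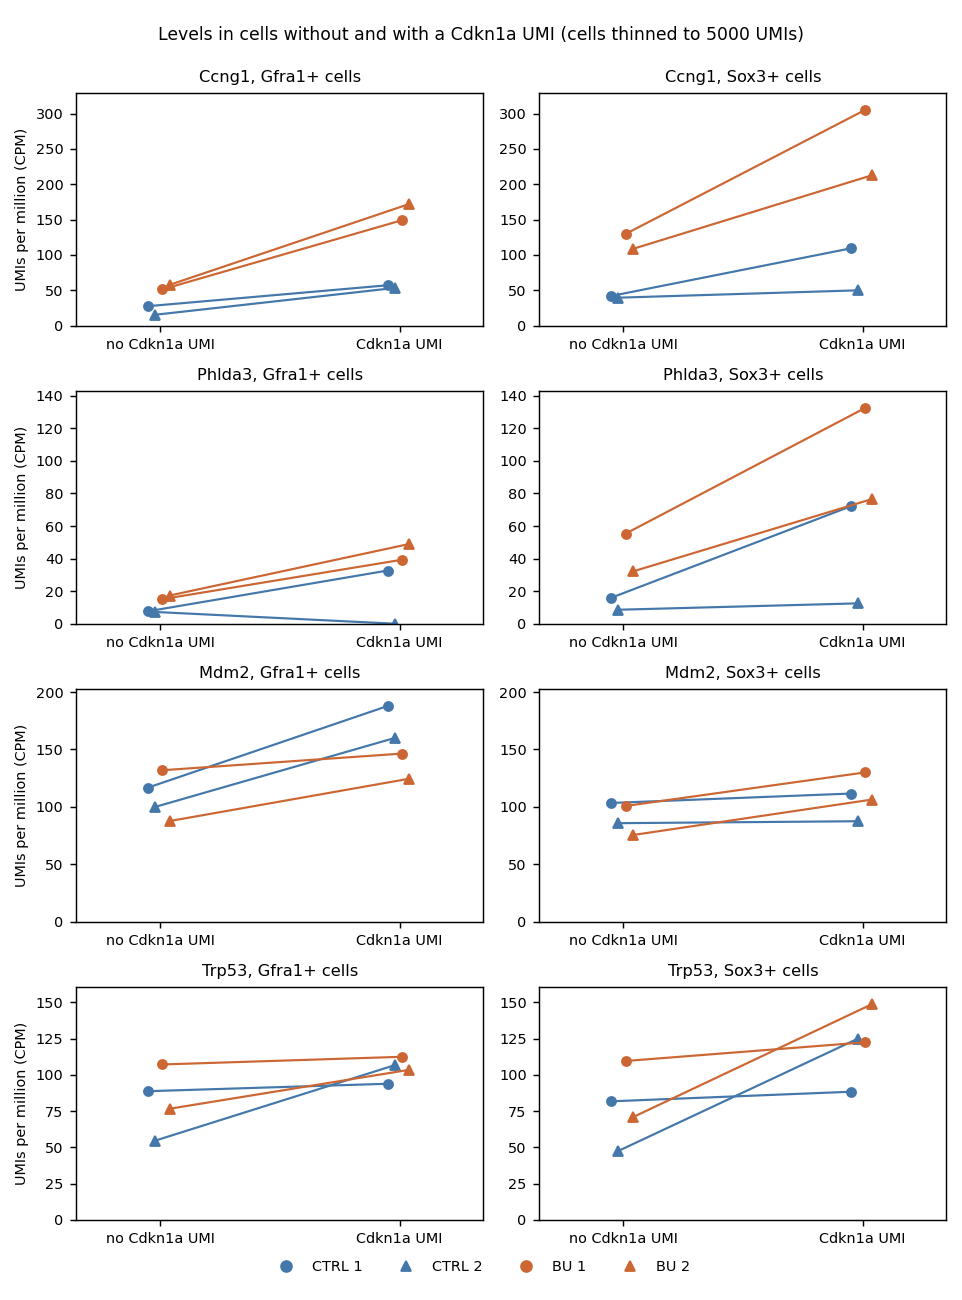
CPM of Ccng1, Phlda3, Mdm2 and Trp53 (y axes) in cells without and with a Cdkn1a UMI (x axis) among Gfra1+ and Sox3+ cells thinned to 5000 UMIs, with a line for each library, CTRL in blue and BU in orange. Ccng1 is higher in cells with a Cdkn1a UMI in all 8 pairs, for example 305 against 130 CPM in Sox3+ cells of BU 1. The CTRL 2 pairs rest on 15 Gfra1+ and 32 Sox3+ cells with such a UMI.

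The rest of the pathway was read from lists of 21 p53 regulators, 17 further targets in arrest and repair and 16 further targets in cell death. These lists were chosen with earlier results of these data known, so counts of calls in them are descriptions and no test of enrichment. Over all cells, with the block, 3 of 16 cell-death targets tested were higher in BU and none lower, where 1.49% of all genes were called. With condition as the only term none was called, as for every gene. The blocked list median was 0.42 against 0.04 for all genes. Pmaip1, which encodes the BH3-only protein Noxa, was at 39.2 and 26 CPM in CTRL and 135 and 83.8 CPM in BU (1.77 ± 0.21, edgeR adjusted p = 0.0289). Bbc3, which encodes Puma, was at 2.83 and 3.05 CPM in CTRL and 8.67 and 9.7 CPM in BU (1.67, edgeR adjusted p = 0.0484), and Epha2, a receptor tyrosine kinase, was the third (1.74, 0.0392). None of 20 regulators (median 0.26) and none of 16 arrest and repair targets (median 0.40) was called. The median of the 9 members was 0.60.

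Within classes, 5 of 15 cell-death targets tested were called in Sox3+ cells, 0 in Gfra1+ and 1 of 13 in Kit+ cells, with 5.64%, 0.066% and 1.04% of all genes called in the same fits. In Sox3+ cells they included Pmaip1 (1.27, edgeR adjusted p = 0.0314), Bbc3 (1.47, 0.0416), Apaf1, the caspase activator (1.72, 0.0438), and Rps27l (1.09, 0.0235). Of 16 arrest and repair targets tested only 1 was called, Plk3, which was higher (1.63, edgeR adjusted p = 0.0352). Of 19 regulators tested 1 was higher, the checkpoint kinase Chek1 (1.15, 0.0442). The 2 lower ones were the ribosomal proteins Rpl5 and Rpl11, which bind Mdm2 (-0.56 and -0.51). These calls stand beside the 5.64% of all genes called in that fit. In Kit+ cells Pmaip1 went from 6.05 and 6.22 CPM in CTRL to 47 and 43.5 CPM in BU (2.81, edgeR adjusted p = 0.0275). The CTRL values rest on few UMIs in 36 and 37 cells, where 3 Cdkn1a UMIs made 9.07 CPM in CTRL 1. In CTRL 2, 8 of the cells carried spermatid or somatic RNA. Between classes Pmaip1 was lower in Sox3+ than in Gfra1+ cells by 2.02 on the log2 scale (edgeR adjusted p = 0.000136), the same direction as Cdkn1a and the opposite one to Ccng1.

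The genes whose levels over the 12 class sums ran most like Cdkn1a were Galnt7 (Pearson r = 0.951), Ppp2r2c (0.937), Copb1 (0.934), Dera (0.934) and Plk2 (0.930), of 9058 genes compared on log2(CPM + 1). For Trp53 they were Cers5 (0.957), Rhox13 (0.941), Mcm2 (0.940), Gtf3c2 (0.936) and Ywhah (0.924). Cdkn1a with Trp53 gave 0.017 over the 12 sums, whereas Cdkn1a with Ccng1 gave 0.731, with Eda2r 0.745 and with Phlda3 0.186. With Zmat3 it gave 0.668, with Sesn2 0.193, with Mdm2 -0.053 and with Trp53inp1 -0.487. The 12 points share 4 libraries and their depth. They include a CTRL 1 Kit+ sum of 10 cells with 0 Cdkn1a UMIs and a CTRL 2 Kit+ sum of 15 cells. The weight of these small sums was not tested, so all these values are descriptions.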

How the data were processed

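Single-cell RNA-seq (10x Genomics, 3′ tags) of sorted Aundiff gave 4 libraries, and the deposited values are UMI counts per gene and cell, which the authors made with Cell Ranger (version 3.0.2 per the file headers). Submitters' notes name GRCm39 and the study's methods mm10. Gene coordinates here are GRCm38 (GENCODE M21) and the promoters RefSeq GRCm38.p6. Total UMIs were 26802228, 39904588, 21136369 and 53579969 in CTRL 1, CTRL 2, BU 1 and BU 2.

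Counts were summed per library and class and tested with edgeR 4.0.16 (R 4.3.3) by the quasi-likelihood test, with its filter on low counts, TMM normalization and Benjamini-Hochberg adjustment over all genes tested, at 0.05. DESeq2 1.42.0 was an alternative. Genes that define a class or the cycle ranking were left out of the calls. The scripts were tested on simulated data. Same-numbered CTRL and BU libraries come from 1 experiment, and their deviations from the group means correlated at 0.781 over 11111 genes, so the replicate number was also fitted as a block. No doublet caller was run, and cells above 2.5 times their library's median UMIs were left out as an alternative.

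The 9 genes and the gene lists were chosen with earlier results of these data known. The 9 genes were followed in each comparison, with at most 4 called genes of each other list (mean of at least 5 CPM, by size of change) and the 5 genes most like Cdkn1a and Trp53. Shared barcodes and cells with over 0.5% of UMIs in spermatid or somatic markers were left out in alternatives chosen after seeing the data. Wherever 1 library was left out, the lone library of its group was assumed to vary like the others. Without a block, p-values measure the spread between libraries of pooled mice. In each group that spread also holds the difference between the experiments in kit and depth. With the replicate number as a block, they measure how the difference between BU and CTRL varied between experiments. Each experiment gave only 1 such difference, so these p-values lean on spread that edgeR shares across genes. With the library as a block, p-values measure how the difference within a library varied between libraries. The classes were fitted together, so the spread behind each class comparison also holds the sums of the class not compared. The CTRL Kit+ sums were of 10 and 15 cells.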

Additional observations from a re-analysis of the deposited data

Results flagged for a closer look

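The BU effect on Cdkn1a differed between Kit+ and Gfra1+ cells by a log2 value of -2.213 (edgeR adjusted p = 0.0421), the only difference of the BU effect between classes that passed among the 9 genes. In Gfra1+ only cells Cdkn1a was at 30.6 and 24.4 CPM in CTRL and 109 and 131.5 CPM in BU. In Kit+ only cells it was at 0 and 76.5 CPM in CTRL and 69.0 and 69.3 CPM in BU, so CTRL 2 lay above both BU libraries. The CTRL sums came from 10 and 15 cells, and the CTRL 2 cells carried spermatid and somatic RNA. With those cells left out both CTRL sums held 0 Cdkn1a UMIs, so the fitted value (9.40, adjusted p = 0.301) is no measure of size, and the part of those cells in the difference could not be tested.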

How the results depend on the processing

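Called here means called in the main fit, which for BU against CTRL had condition as the only term and called 0 genes. All BU against CTRL values, also those called with the replicate block, therefore count as uncalled in these numbers. Only pairs of gene and comparison chosen for report were counted, not all values of the 9 genes. Of the alternatives to their called values, 92 kept the call, 31 lost it and 1 turned sign. Of those to uncalled values 105 passed the threshold, 304 did not and 16 turned sign. The first 3 numbers thus say nothing on the BU calls. The replicate block changed no call other than those given with the results. With the replicate block, edgeR called 258 genes in all cells, 9 in Gfra1+, 814 in Sox3+ and 115 in Kit+ cells, against 0 in each without it, and DESeq2 called 113, 15, 323 and 41. Without the filter on low counts the last 3 were 50, 362 and 564. Leaving out 1 library gave 0 to 96, 0 to 25, 10 to 1329 and 89 to 886. With the block, other cell types left out gave 105, 45, 1078 and 280, thinning 969, 48, 603 and 74, and shared barcodes left out 1461, 41, 1226 and 383, while cells of 1 class gave 79, 201 and 270 in the 3 classes. For Sox3+ against Gfra1+ cells (1793 genes), no library block gave 417, leaving out 1 library 661 to 3455, CTRL alone 980, BU alone 2939, thinning 1148 and other cell types left out 3677. For Kit+ against Gfra1+ cells (3061) the same settings gave 908, 623 to 5193, 203, 5803, 1605 and 4662, and for Kit+ against Sox3+ cells (1898) 78, 0 to 3089, 842, 3299, 589 and 2985, with 3037 unfiltered. The difference of the BU effect in Sox3+ cells (5 genes) became 121 unfiltered, 3 without shared barcodes and 87 without other cell types, and that in Kit+ cells (548) 336 in DESeq2, 1425 unfiltered and 18 without other cell types. For the tertiles, Gfra1+ cells (4404) gave 2803 in DESeq2, 2463 to 3770 without 1 library, 2498 by S phase genes and 1644 thinned, Sox3+ cells (2504) 1404 to 1970, 1290 by S phase genes and 1066 thinned, and Kit+ cells (0) 112 in DESeq2, 396 unfiltered, 0 to 1881, 74 thinned, 1 without shared barcodes and 949 without other cell types.

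The counted values that turned sign, for which the cause was not tested, were all uncalled except the last. Values outside the count can also turn, as Trp53inp1 for BU against CTRL in Kit+ cells, at 0.0263 and at -0.0007 with the replicate block. Over all cells, leaving out 1 library gave Trp53 -0.084 (without BU 1) to 0.856, Mdm2 -0.148 (without BU 1, and -0.001 without CTRL 2) to 0.356 and Sesn2 -0.277 (without BU 1) to 1.328, and Mdm2 was -0.013 thinned. Cdkn1a in Kit+ against Gfra1+ cells ran from -0.947 without CTRL 2 to 0.15 without BU 2 (0.11 without BU 1) and was 1.11 in CTRL alone, and against Sox3+ cells -0.10 thinned, while Ccng1 there was -0.64 in CTRL alone. With S phase genes only, tertiles gave Cdkn1a -0.36 and Ccng1 -0.036 in Sox3+ cells and Ccng1 -0.13 in Kit+ cells, where Cdkn1a ran from -1.484 without BU 1 to 0.51 without CTRL 2 and was 0.37 thinned and 0.53 without other cell types. The called difference of the BU effect on Cdkn1a between Kit+ and Gfra1+ cells became 9.40 without other cell types, with 0 UMIs in both CTRL sums. DESeq2's scaling moved the median of all genes from 0.0039 to 0.108 in Kit+ against Sox3+ cells and from 0.0748 to -0.0892 in the difference of the BU effect in Kit+ cells. Kit+ values rest on 36 and 37 CTRL cells.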
